A study of Mus musculus with 22 samples.

Results

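Gene expression in pancreatic tumors of miR-21 knockout (KO) mice was compared with that in cancer cell lines grown out of KO tumors. All libraries labelled miR21 KO were taken: 8 whole tumors and 5 cell lines, 13 of the 22 libraries of the study. The other 9 libraries were 4 tumors and 5 lines labelled WT, and they enter only a test of whether the difference between tumor and line was the same in both genotypes. The study concerns genetically engineered mouse models of pancreatic cancer. The libraries are messenger RNA sequencing of total RNA with single-end reads of 75 bases.

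The KO tumors and the KO lines share the genotype (miR21 KO) and the mouse line (Bl6), and no animal or culture was treated. The tumors were snap-frozen before RNA was extracted with TRIzol. The lines came from dissociated non-necrotic tumor tissue of symptomatic animals and had been passaged at least 8 times so that fibroblasts were lost. They were used between passage 10 and 14, in medium with 5% fetal bovine serum, and were harvested before the dishes were full. According to the labels, the lines were genotyped for their recombined driver and p53 alleles, including loss of heterozygosity. A KO line is therefore a selected culture of cancer cells, and a KO tumor is a mixture of cancer cells with everything else the tissue holds. By the animal names in the titles, 2 animals, KPC21171 and KPC2157, gave both a tumor and a line. The age and sex of the animals are not given in the sources used here.

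Pancreatic ductal adenocarcinoma is known for an abundant stroma of fibroblasts, matrix, immune cells and vessels, in which the cancer cells can be a minority. Fibroblasts lay down collagen and secrete growth factors, and Hedgehog ligands from the cancer cells are known to signal to them. Cells in culture divide in the presence of serum and nutrients and without these neighbours. The microRNA miR-21 is abundant in many tumors and represses messenger RNAs that carry a match to its seed.

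The mature miR-21a-5p sequence is given first because its loss is what all 13 libraries share. It lies on the minus strand at chr11:86584120-86584141 (GRCm38.p6, RefSeq), inside the gene Vmp1, and its seed, bases 2 to 8, is in capitals.
miR-21a-5p: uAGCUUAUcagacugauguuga
The precursor gene Mir21a had 0 counts in all 13 libraries. Libraries of messenger RNA rarely hold such short precursors, so this count does not check the genotype. Vmp1, the host gene, is needed for autophagy. It was at 425, 586 and 705 CPM (counts scaled to a common library size; lowest, median and highest tumor) and at 374, 390.1, 483, 374 and 364 CPM in KO lines 1 to 5. The groups overlapped, and Vmp1 was higher in the tumors by 0.51 ± 0.14 (log2 fold change ± SE; adjusted p = 0.00748).

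Total counts ran from 24547650 to 31118113 per library. The tumors and lines were deposited in separate tables, so a difference in how the 2 tables were counted cannot be told apart from the difference between tumor and line. The first principal component separated the 8 tumors from the 5 lines and held 73.3% of the variance. Pearson's r of log2 CPM across genes was 0.972 to 0.987 among lines, 0.899 to 0.981 among tumors and 0.786 to 0.916 between a tumor and a line. KO tumor 2 lay nearest to the lines on that component, at 14.2 against 55.2 to 123 for the other tumors, and KO tumor 6 stood apart on the second component. The titles and the sex-linked transcripts went against each other for animal KPC2157: its tumor, KO tumor 3, had 1661 CPM of Xist, and its line, KO line 5, had 0 CPM of Xist and 20.8 CPM of the Y-linked Eif2s3y. For KPC21171, tumor and line both had Y-linked transcripts and no more than 0.213 CPM of Xist.

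Of 17322 genes tested, 6027 (34.8%) were higher in KO tumors and 4373 (25.2%) were higher in KO lines at an adjusted p under 0.05 (edgeR's quasi-likelihood test with Benjamini-Hochberg adjustment). Because so many genes passed, a second call asked for more than a 2-fold difference: 3612 genes (20.9%) were higher in tumors and 513 (2.96%) were higher in lines beyond 2-fold. Without the 2 libraries named KPC2157, 5577 genes were higher in tumors and 3831 in lines. Every tumor lay above every line for 3594 genes (20.7%), and every line lay above every tumor for 2383 (13.8%). The median log2 fold change over all genes tested was 0.123. Of the calls, 58.0% were higher in tumors with trimmed-mean scaling, and with library totals alone that share was 71.4%, with a shift of 0.204 in the median log2 fold change.

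Several genes named here share bases with a gene on the other strand, and since the strand setting of the counting is not given in the sources used here, their reads may not be separate: Timp3 with Syn3, Csf1r with Hmgxb3, Vsir with Cdh23, Zeb2 with Zeb2os, Twist2 with Gm29100, Grhl2 with Gm16136, Tff1 with Gm15318, Lamb3 with Hsd11b1, Ccnd1 with LTO1 and Shh with Gm26894. The same holds for Col4a1 and Col4a2, which overlap each other, and for Pdcd1lg2 with A930007I19Rik.

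The asymmetry was also seen in genes without a count in a whole group, where the design favours it. No count was found in any of the 5 lines for 752 of the genes tested, while none of the genes tested had 0 counts in all 8 tumors. The filter on low counts let a gene pass on 5 of the 8 tumors, but on the lines alone only if all 5 held it. A gene must also lack counts in 8 libraries on one side and in 5 on the other. The contrast of 752 with 0 is therefore not read as a result. Among those 752 genes, 182 reached a mean of at least 10 CPM in the tumors. For such genes the fold is given as a lower bound, against the level of 3 counts in 1 line (0.136 CPM).

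Genes of type I collagen and of fibroblasts were far higher in tumors. Col1a2 (chr6:4504814-4541544), which encodes a chain of type I collagen, was at 414, 1417 and 3221 CPM in the lowest, median and highest tumor and had 0 counts in the 5 lines, so it was at least 11568-fold higher in tumors. Dcn, the matrix proteoglycan decorin (chr10:97479609-97518143), was at 90.0, 509 and 3382 CPM in tumors and at 0 counts in lines, at least 6104-fold higher. Its highest value came from KO tumor 4 and its lowest from KO tumor 2. Col1a1, the partner chain of type I collagen, was at 665, 1902 and 4195 CPM in tumors. In lines 1 to 5 it was at 1.99, 3.81, 1.72, 0.996 and 1.77 CPM, a log2 fold change of 9.93 ± 0.57 (beyond 2-fold, adjusted p = 3.6e-07). Both type I collagen transcripts were thus abundant in every tumor and low or uncounted in every line.

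Of the 10 fibroblast markers, 9 were higher in tumors beyond 2-fold and 5 had 0 counts in all lines, among them Thy1, a surface marker of mesenchymal cells, at 132 ± 49.2 CPM in tumors (SD, n = 8). The exception was Fbln1, a matrix protein, at 67.1 ± 27.6 CPM in tumors and 60.3 ± 15.4 CPM in lines. The summed CPM of the list ran from 262 to 4612 in tumors and from 36.6 to 77.6 in lines, and Fbln1 made up nearly all of the latter. The fitted median log2 fold change of the list was 12.9, or 8.96 with the genes at 0 set to their bound. Fewer cells of a type and less RNA per cell cannot be told apart in bulk libraries such as these.

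Contractile and pericyte genes had the same direction. Of 10 members, 9 were higher in tumors beyond 2-fold, including Rgs5, a pericyte marker, at 196 ± 198 CPM in tumors and 0.0682 ± 0.065 CPM in lines. Acta2, the smooth-muscle actin of myofibroblasts, was at 43.5, 122 and 318 CPM in tumors and at 0.258, 0.427, 35.8, 1.9 and 0.216 CPM in lines 1 to 5. KO line 3 alone approached the lowest tumor. The log2 fold change was 4.04 ± 1.19 (adjusted p = 0.00987) with KO line 3 and 7.55 without it. Of 10 inflammatory fibroblast genes, 8 were higher in tumors beyond 2-fold. Among them were Igf1, a growth factor (log2 fold change 9.58 ± 0.71), and the chemokine Cxcl12 (3.69 ± 0.75, or 4.33 without KO line 4). For Igf1 the value was 10.8 without KO line 3. Ptgs2, the inducible enzyme of prostaglandin synthesis, was not called, at 35.9 ± 31.9 CPM in tumors and 60.1 ± 19.8 CPM in lines, but was higher in lines without KO tumor 6 (-1.20; adjusted p = 0.0142).

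Of 20 matrix genes, 19 were higher in tumors, 16 of them beyond 2-fold, and the list's median log2 fold change was 6.37. Fn1, the matrix glycoprotein fibronectin, had high levels in both materials, at 1893, 2875 and 5529 CPM in tumors and 835, 1121, 2710, 656 and 931 CPM in lines. The groups overlapped through KO line 3, and Fn1 was higher in tumors by 1.30 ± 0.36 (adjusted p = 0.00682). The basement membrane collagens Col4a1 and Col4a2 were also abundant in both. Col4a1, the member that was not called (0.34 ± 0.16), was at 707 to 1106 CPM in tumors and 459 to 808 CPM in lines, and Col4a2 was higher in tumors by 0.62 ± 0.16. Among proteinases and their inhibitors 7 of 10 were higher in tumors. Mmp2, a gelatinase, was at 200.4 ± 101 CPM in tumors and 0.0512 ± 0.0714 CPM in lines. Timp3, an inhibitor of metalloproteinases and a published miR-21 target, was at 251, 518 and 743 CPM in tumors and at 123, 29.7, 80.1, 99.3 and 70.9 CPM in lines, without overlap (2.65 ± 0.36; beyond 2-fold, adjusted p = 0.000495).

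**Figure D1:**
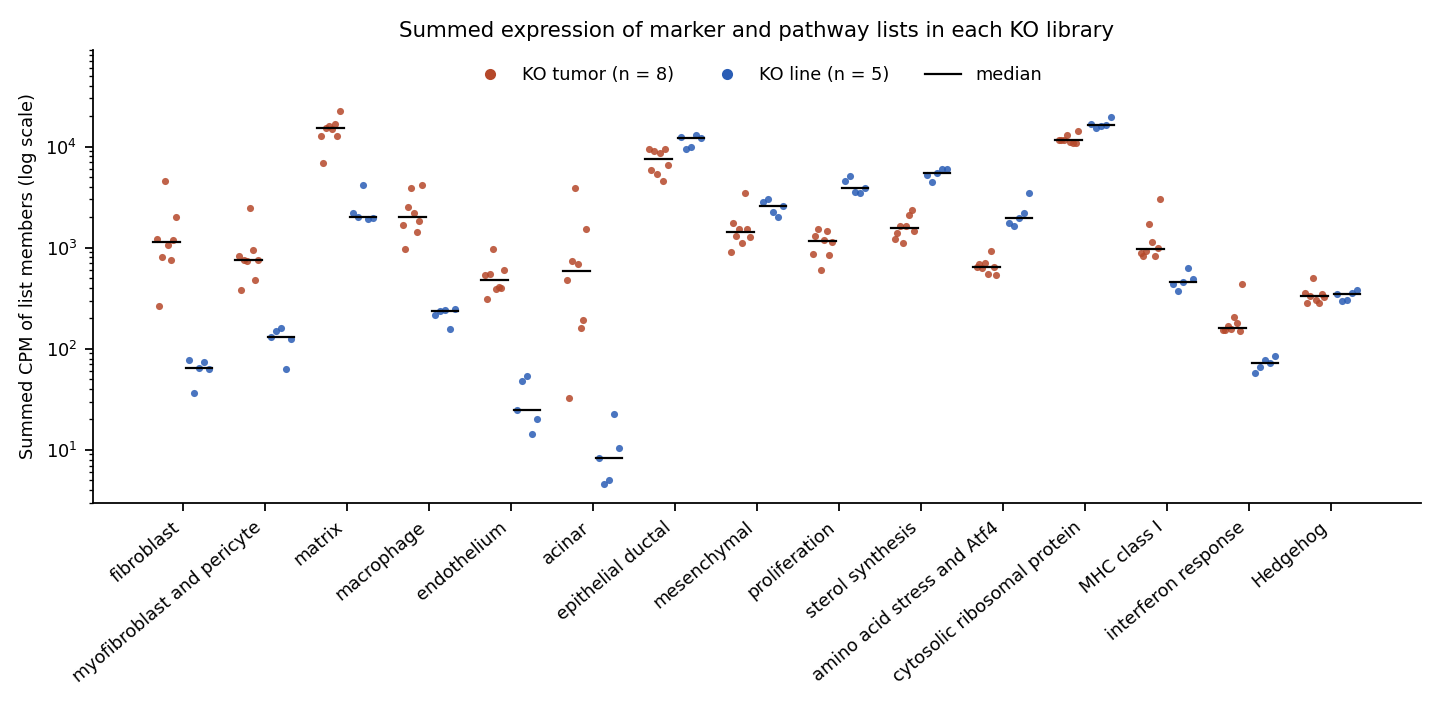
Summed CPM (log scale) of the members of 15 marker and pathway lists in each KO tumor (n = 8) and KO line (n = 5), 1 point per library, with the median of each group as a bar. Fibroblast sums ran from 262 to 4612 in tumors and stayed under 77.7 in lines, whereas proliferation and sterol synthesis sums were higher in every line than in every tumor.

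Immune transcripts were present in all tumors and nearly absent from the lines. Lyz2, the lysozyme of macrophages and neutrophils, was at 356, 944 and 1954 CPM in tumors and had 0 counts in the 5 lines, at least 7798-fold higher. C1qa, a complement component made by macrophages, was at 76.8, 178 and 390.0 CPM in tumors and at 0 counts in lines, at least 1588-fold higher. Both ranges lay wholly above the lines. Of 14 macrophage markers, 13 were higher in tumors, 12 beyond 2-fold, and 9 had 0 counts in all lines. The summed CPM of the list was still 157 to 246 in lines. It came from Cd14, a receptor for bacterial lipopolysaccharide, at 141 ± 29.4 CPM in lines and 130.3 ± 55.4 CPM in tumors, and from Mrc1, the mannose receptor, at 75.3 ± 43.6 and 213 ± 116 CPM. Mrc1 was higher in tumors by 1.5 ± 0.51 (adjusted p = 0.0204; 0.0526 without KO line 5).

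All 9 neutrophil genes tested, all 6 mast cell genes and all 9 B and plasma cell genes tested were higher in tumors beyond 2-fold, as were 6 of 7 dendritic cell genes. Ly6g, a neutrophil surface marker that did not pass the filter on low counts, went the other way. It was at 0.0622, 0.183 and 0.488 CPM in tumors and at 0.222, 2.28, 7.80, 0 and 0.397 CPM in lines, and was higher in lines beyond 2-fold when no filter was used. S100a8, a calcium-binding protein of neutrophils, was at 46.3 ± 33.9 CPM in tumors and 0.0362 ± 0.0363 CPM in lines. Igkc, the constant region of the kappa light chain, was at 6.74, 121 and 1377 CPM in tumors and at 0 counts in lines, at least 2466-fold higher, so that its level differed more among tumors than that of the macrophage genes. For T and NK cells only 4 of 14 markers passed the filter on low counts. Cd3e, a subunit of the T cell receptor complex, was at 0.0341, 0.556 and 26.8 CPM in tumors, with 0 counts in lines. KO tumor 8 held the highest value, and without that tumor 2 of the T and NK cell genes were called instead of 4. Without any filter on low counts, 12 of the 14 were.

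MHC class II, which presents antigen to T helper cells, had a summed level of 207 to 4349 CPM in tumors and of at most 1.68 CPM in lines. H2-Aa, an MHC class II chain, was at 38.4, 125 and 867 CPM in tumors and at 0 counts in lines, at least 1508-fold higher. All 7 members were higher in tumors beyond 2-fold, and reads of this family can be shared between similar genes. The complement genes did likewise in 9 of 10 cases. C3, the central complement component, was at 557, 902 and 4034 CPM in tumors and at 3.25, 5.41, 4.91, 12.5 and 32.6 CPM in lines (6.93 ± 0.86; beyond 2-fold, adjusted p = 5.86e-05; 7.77 without KO line 5), with every tumor above every line.

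Vessels showed the same direction. All 13 endothelial genes were higher in tumors, 12 beyond 2-fold, with a median log2 fold change of 7.46. Pecam1, an adhesion molecule of endothelium, was at 35.0, 64.0 and 157 CPM in tumors and at 0.258, 0.534, 0.429, 0.543 and 0.361 CPM in lines, without overlap (7.46 ± 0.51; adjusted p = 3.82e-07). Flt1, a receptor for vascular endothelial growth factor, was the endothelial gene with the highest level in lines, at 22.8 ± 19.0 CPM against 74.6 ± 42.3 CPM in tumors (adjusted p = 0.0204; 0.0517 without KO line 5). Of 6 lymphatic vessel genes, 5 were higher in tumors, including Lyve1, a hyaluronan receptor (7.84 ± 1.13, or 9.13 without KO line 4 and 7.08 without KO tumor 4). All 6 erythroid genes were higher in tumors beyond 2-fold. Hbb-bs, a beta globin, was at 183 ± 156 CPM in tumors and at 0 counts in lines, and its reads can be shared with the near-identical Hbb-bt.

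Genes of acinar and islet cells were also higher in tumors, and which cells of the tumors held their transcripts was not tested. KO tumor 2 had an islet sum of only 2.8 CPM. All 16 acinar genes tested were higher in tumors, 15 beyond 2-fold. Ctrb1, a digestive proenzyme of acinar cells, was at 6.99, 170.3 and 1014 CPM in tumors and at 0 counts in lines, at least 2314-fold higher. The acinar sum ranged from 32.4 CPM in KO tumor 2 to 3866 CPM in KO tumor 4. All 12 islet genes tested were higher in tumors beyond 2-fold, with Ins2, an insulin gene, at 0 to 108 CPM. The share over all genes tested was 20.9%. Of the genes tested, 9 acinar and 8 islet genes had 0 counts in all lines. These passed the filter through the tumors alone, so their direction is not read as a result. The groups overlapped for 5 of the 16 acinar and 6 of the 12 islet genes. With limma-voom, fewer genes of both lists were called beyond 2-fold. Markers of skeletal muscle and liver were low, with list sums of at most 66.7 and 109.6 CPM in any tumor.

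In all, 24 lists of stromal, immune, vessel and other tissue markers held 220 genes that were tested. Of these, 197 were higher in tumors and 2 were higher in lines, against 34.8% and 25.2% of all genes tested. Beyond 2-fold the numbers were 186 and 2, against 20.9% and 2.96% of all genes. Of the 220, 67 had 0 counts in every line, as had 752 of all 17322 genes tested. Those 67 passed the filter through the tumors alone and could not be called higher in lines. The 2 higher in lines were Tigit, an immune checkpoint receptor, and Pparg, a regulator of fat cells. The labels say that fibroblasts were outgrown in the lines. Col1a2, Dcn, Lyz2 and C1qa had 0 counts in all 5 lines. They were named for their fitted fold change, an order that puts such genes first, so they do not check the label. Of whole lists, 5 of 10 fibroblast and 9 of 14 macrophage markers had 0 counts in all lines. Others were counted in every line: Fbln1 (34.6 to 72.6 CPM), Pdgfra (0.858 to 4.58), Mrc1 (16.8 to 119) and Cd14 (115 to 191).

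**Figure D2:**
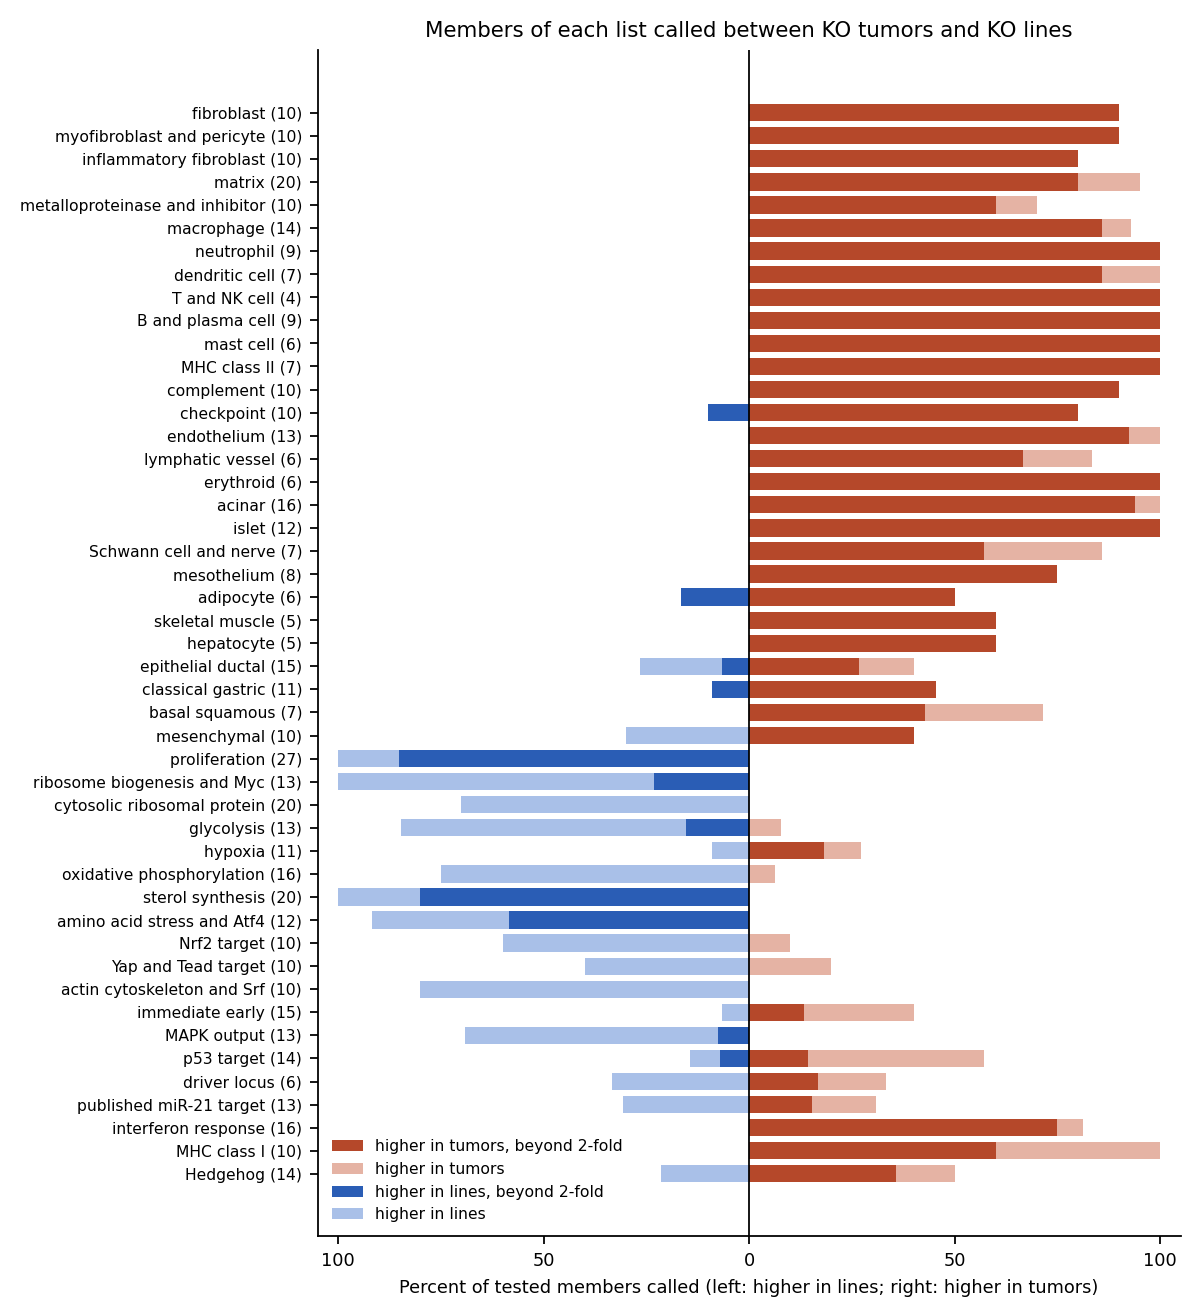
Percent of the tested members of each list (number tested in brackets) that were called higher in KO tumors (right, red) or higher in KO lines (left, blue), with calls beyond 2-fold in the darker shade. Stromal, immune, vessel and tissue lists extend to the right, while proliferation and sterol synthesis reach 100% to the left.

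Genes of the ductal epithelium, which both materials contain, did not move together. Of 15 members, 6 were higher in tumors, 4 were higher in lines and 5 were not called, and the median log2 fold change was 0.698. Over all genes tested, 34.8% were higher in tumors and 25.2% in lines, with a median of 0.123. The split of this list is near that of all genes and is not read as particular to ductal genes. The 4 higher in lines were keratins. Krt19, the keratin that marks pancreatic ducts (chr11:100140810-100148665), was at 551, 1040 and 1313 CPM in tumors and at 2761, 2571, 2281, 2173 and 2720 CPM in lines. Every line lay above every tumor, with a log2 fold change of -1.37 ± 0.20 (adjusted p = 6.84e-05). It was also called beyond 2-fold, but not with DESeq2, limma-voom or library totals, nor without most single libraries. The other 3 were Krt7 (-1.0 ± 0.24), Krt8 (-1.04 ± 0.20) and Krt18 (-0.90 ± 0.21). Per length of transcript, Krt18 was the highest of the 4 in lines, at 1738 RPKM (CPM per kilobase of exon), followed by Krt19 at 1348, Krt8 at 1205 and Krt7 at 248.

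Other members of the same list were higher in tumors. The genes described here were singled out after their values were seen. Epcam, an epithelial adhesion molecule (chr17:87635979-87651129), was at 252, 539 and 1176 CPM in tumors and at 6.16, 16.2, 87.9, 74.1 and 23.9 CPM in lines. All tumors lay above all lines, and the log2 fold change was 3.88 ± 0.67 (beyond 2-fold, adjusted p = 0.00118). Cldn4, a tight junction claudin, was at 38.9, 153 and 277 CPM in tumors and at 1.25, 1.96, 31.1, 15.8 and 3.50 CPM in lines (3.90 ± 0.79; adjusted p = 0.000927). Grhl2, a transcription factor of epithelial identity, was at 8.44, 29.8 and 43.7 CPM in tumors and at 1.03, 1.5, 1.09, 3.03 and 0.325 CPM in lines (4.32 ± 0.56; adjusted p = 3.02e-05). The claudin Cldn7 was higher in tumors by 2.20 ± 0.61. Esrp1, a splicing regulator of epithelial cells, was higher by 2.43 ± 0.86 (adjusted p = 0.0253; 0.0521 without KO line 5). Cdh1, E-cadherin, was not called, at 895 ± 281 CPM in tumors and 1269 ± 326 CPM in lines (-0.50 ± 0.23), but was higher in lines without KO tumor 2 (-0.58; adjusted p = 0.0485).

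KO lines 3 and 4 had the highest Epcam, Cldn4, Cldn7 and Esrp1 of the 5 lines. Without KO line 3, the log2 fold changes were 4.83 for Cldn4, 3.0 for Cldn7 and 3.60 for Esrp1. These 2 lines were also the ones with Xist, at 1289 and 1641 CPM, and the part of sex in their Epcam level was not tested. In the pair of libraries that carry the name KPC21171, Epcam was 5.25 higher (log2) in the tumor than in the line and Krt19 was 2.01 lower.

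**Figure D3:**
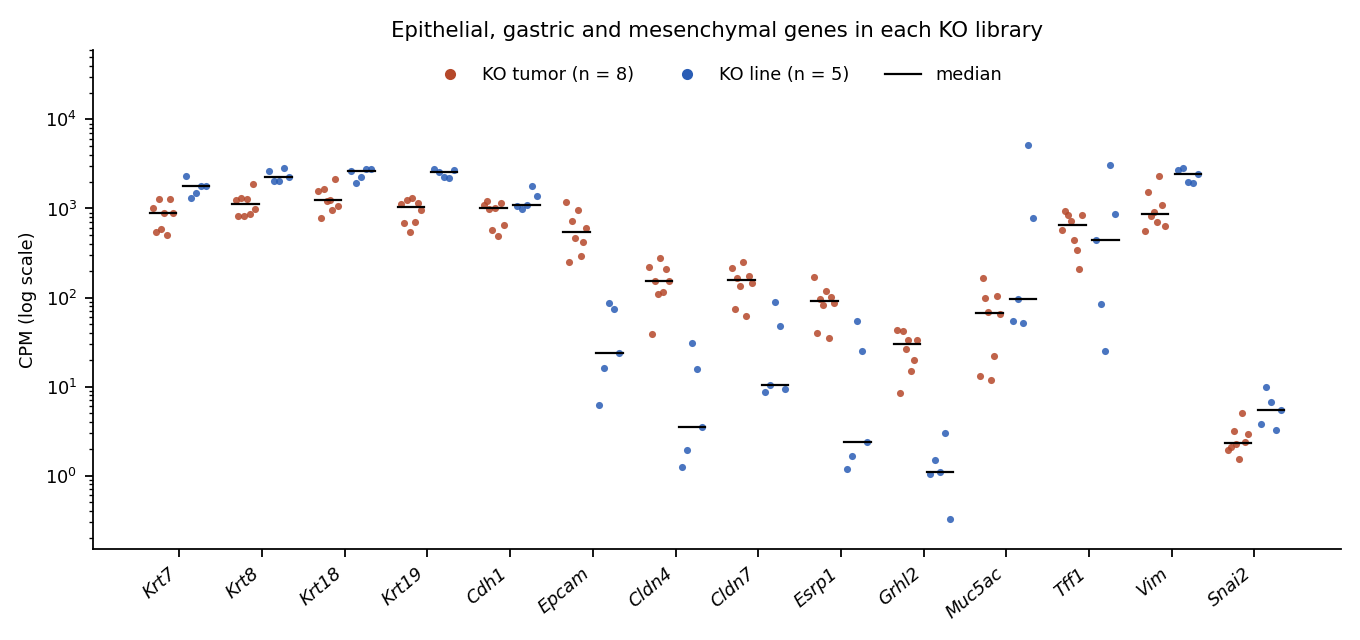
CPM (log scale) of epithelial, gastric and mesenchymal genes in each KO tumor (n = 8) and KO line (n = 5), 1 point per library, with group medians as bars. The 4 keratins are higher in lines, Epcam, Cldn4 and Grhl2 are higher in every tumor than in every line, and Muc5ac and Tff1 spread widely among lines.

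Gastric-type genes of the classical subtype of pancreatic cancer also differed gene by gene. Of 11 members, 5 were higher in tumors and Muc5ac alone was higher in lines, all 6 beyond 2-fold. Over all genes tested, 20.9% were higher in tumors and 2.96% in lines beyond 2-fold. Muc5ac, a gastric mucin, was at 11.7, 67.4 and 165 CPM in tumors and at 55.2, 97.0, 51.3, 5148 and 791 CPM in lines. KO line 4 set its mean: the log2 fold change was -4.15 ± 1.08 (adjusted p = 0.00466) with that line and -1.84 (adjusted p = 0.0697) without it. Tff1, a trefoil peptide, was at 208, 650.5 and 926 CPM in tumors and at 438, 83.7, 25.3, 3080 and 872 CPM in lines, and was not called. KO line 4 was again the highest. Ctse, cathepsin E, was not called with KO line 4 (0.98 ± 0.58) and was higher in tumors by 2.10 without it (adjusted p = 0.00132).

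The 5 that were higher in tumors included Muc6, a mucin of deep gastric glands, at 431 ± 389.9 CPM against 0.0579 ± 0.055 CPM in lines. Vsig2, a membrane protein of gastric epithelium, was at 58.3 ± 28.7 against 0.118 ± 0.133 CPM. Tff2, another trefoil peptide, was higher by 3.74 ± 0.96 and Gkn1, a gastrokine, by 4.58 ± 1.20, or 7.65 without KO line 4. Agr2, a secretory-pathway protein, was higher by 4.15 ± 0.97. KO tumor 2 had the lowest Muc6 and Vsig2, at 2.66 and 6.35 CPM. Of 7 basal or squamous genes tested, 5 were higher in tumors, 3 of them beyond 2-fold, and Lamb3, a laminin chain, was higher by 1.14 ± 0.18. The shares over all genes tested were 34.8% and 20.9%.

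Mesenchymal genes were likewise split. Vim, the intermediate filament vimentin, was at 562, 868 and 2313 CPM in tumors and at 2686, 2869, 2002, 1911 and 2459 CPM in lines. Only KO tumor 6 reached the range of the lines, and Vim was higher in lines (log2 fold change -1.15 ± 0.31; adjusted p = 0.00547). The transcription factor Snai2 was also higher in lines (-1.14 ± 0.33). Twist2, another such factor, was higher in lines by the test (-2.38 ± 0.80), but not without KO line 3 (-1.38; adjusted p = 0.132). Snai1 (6.26 ± 0.44), Zeb2 (3.15 ± 0.63), Prrx1 (3.90 ± 0.62, or 4.65 without KO line 3) and the matrix protein gene Tgfbi (9.82 ± 0.72) were higher in tumors. Of 10 members, 4 were higher in tumors and 3 in lines, or 6 in lines without KO tumor 6. With all libraries this is near the shares over all genes tested, 34.8% and 25.2%. Fibroblasts and macrophages also express several of these genes, so the tumor values are not those of cancer cells alone, and how much each cell type contributes was not tested.

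Division genes were higher in the lines without exception. All 27 proliferation genes were higher in lines, 23 of them beyond 2-fold, and for 26 every line lay above every tumor. Their median log2 fold change was -1.96. The shares over all genes tested were 25.2%, 2.96% and 13.8%. Mki67, the proliferation antigen (chr7:135689784-135716361), was at 75.3, 135 and 185 CPM in tumors and at 462, 612, 366, 394 and 350.5 CPM in lines (-1.76 ± 0.20; beyond 2-fold, adjusted p = 0.00179). Top2a, the topoisomerase of dividing cells, was at 41.0, 112 and 243 CPM in tumors and at 592, 724, 488, 427 and 512 CPM in lines (-2.25 ± 0.33; adjusted p = 9e-05). Cdk1, the mitotic kinase, was at 23.0, 34.1 and 63.6 CPM in tumors and at 169.7, 160.4, 122, 134 and 146 CPM in lines (-1.92 ± 0.22; adjusted p = 1.33e-05). No line reached down to a tumor for any of the 3. The replication genes Mcm6 (-1.40 ± 0.21), Mcm7 (-1.61 ± 0.17) and Pcna (-1.49 ± 0.12) did the same, and Mcm7 shares bases with Cops6 on the other strand. The summed CPM of the list ran from 606 in KO tumor 4 to 1521 in KO tumor 3 and from 3502 to 5138 in lines.

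Promoters of cell cycle genes are known for CCAAT boxes and for an element called CHR. Because the members of the proliferation list moved together, the 150 bases before the RefSeq start (GRCm38.p6) are shown for 5 of them. Capitals mark TTTGAA, the CHR letters, and CCAAT, each on either strand (TTCAAA and ATTGG on the other).
Cdk1, chr10:69352913-69353062, minus strand: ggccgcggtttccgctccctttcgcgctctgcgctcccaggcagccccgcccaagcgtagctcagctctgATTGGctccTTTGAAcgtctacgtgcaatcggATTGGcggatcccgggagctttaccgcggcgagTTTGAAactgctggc
Kif11, chr19:37376232-37376381, plus strand: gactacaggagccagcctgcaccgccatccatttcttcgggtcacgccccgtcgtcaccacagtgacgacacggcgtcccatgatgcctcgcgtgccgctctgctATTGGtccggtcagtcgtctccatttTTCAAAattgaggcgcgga
Cdc20, chr4:118437344-118437493, minus strand: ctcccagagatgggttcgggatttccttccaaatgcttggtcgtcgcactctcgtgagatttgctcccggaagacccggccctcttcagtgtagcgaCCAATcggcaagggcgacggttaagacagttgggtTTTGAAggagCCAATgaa
Top2a, chr11:99024190-99024339, minus strand: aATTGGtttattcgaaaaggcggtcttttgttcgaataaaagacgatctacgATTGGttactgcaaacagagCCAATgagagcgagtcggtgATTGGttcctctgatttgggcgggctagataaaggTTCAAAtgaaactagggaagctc
Mki67, chr7:135716380-135716529, minus strand: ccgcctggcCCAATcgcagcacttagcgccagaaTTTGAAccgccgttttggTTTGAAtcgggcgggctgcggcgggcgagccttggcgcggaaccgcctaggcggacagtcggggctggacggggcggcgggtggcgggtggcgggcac
In these windows Top2a held 4 CCAAT matches and Cdk1 and Mki67 held 2 CHR matches each. Each of the 5 windows held at least 1 match of both kinds. Of the 22 list members with a promoter to search, only 10 held TTTGAA, so the 5 shown are not typical of the list. Kif11, a spindle motor, was higher in lines by a log2 fold change of -1.9 ± 0.23, and Cdc20, an activator of the anaphase-promoting complex, by -2.16 ± 0.24. Cdc20 overlaps Elovl1 on the other strand.

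Over the whole 300-base promoter windows of RefSeq, 250 bases before to 50 after the start, 22 of the 27 proliferation genes were matched. Of these, 18 (81.8%) held CCAAT and 10 (45.5%) held TTTGAA. Among all 27025 promoters, 37.9% held CCAAT and 18.1% held TTTGAA, and among the 12138 of genes tested here 38.3% and 12.4% did. Among the 382 matched genes higher in lines beyond 2-fold the shares were 53.9% and 26.2%. Among the 2261 matched genes higher in tumors beyond 2-fold they were 33.7% and 15.3%, so that TTTGAA was below its share in all promoters and above its share in the genes tested. The E2F letters TTTCCCGC were in 2 of the 22 (9.09%), in 1.11% of all promoters and in 1.96% of those of genes tested. A match describes letters and not a bound factor.

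Genes of sterol synthesis and uptake were higher in every line than in every tumor. All 20 members were called higher in lines, 16 beyond 2-fold, with a median log2 fold change of -1.80. The shares over all genes tested were 25.2% and 2.96%. Insig1, which holds the sterol sensor in the endoplasmic reticulum, was at 37.6, 49.5 and 113 CPM in tumors and at 377, 241, 337, 349.9 and 342 CPM in lines (-2.55 ± 0.23; beyond 2-fold, adjusted p = 3.7e-05). Hmgcs1, an early enzyme of cholesterol synthesis, was at 102, 165 and 286 CPM in tumors and at 419, 491, 547, 526.4 and 486 CPM in lines (-1.53 ± 0.20; adjusted p = 2.87e-05). No value of one group reached the other for either gene. The transcription factor Srebf2 (-1.31 ± 0.13) and the enzymes Mvd (-2.25 ± 0.21) and Idi1 (-1.94 ± 0.22) were higher in lines too. Cyp51 (-2.06 ± 0.20) did likewise and overlaps Akap9 on the other strand. Scd1, the enzyme that desaturates fatty acids, was outside the list and among the 12 largest gaps: 32.4, 65.3 and 242 CPM in tumors and 918, 529.7, 809, 1118 and 856 CPM in lines (-3.24 ± 0.49).

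A pair of promoters of the sterol list are shown for the same reason, with CCAAT on either strand and the sterol element TCACCCCAC in capitals.
Hmgcs1, chr13:119690201-119690350, plus strand: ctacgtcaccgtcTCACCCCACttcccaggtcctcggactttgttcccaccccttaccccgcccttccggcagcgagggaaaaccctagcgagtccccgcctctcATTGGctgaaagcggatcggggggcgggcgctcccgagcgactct
Mvd, chr8:122443423-122443572, minus strand: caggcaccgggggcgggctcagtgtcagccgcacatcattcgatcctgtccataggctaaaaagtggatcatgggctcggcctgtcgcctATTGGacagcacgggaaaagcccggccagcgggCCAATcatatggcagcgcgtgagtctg
Of 20 sterol genes, 12 had a RefSeq promoter in the table. CCAAT was in 11 of them (91.7%), and the exact letters TCACCCCAC were in 1, that of Hmgcs1. They were in 0.522% of all promoters and in 0.262% of those of genes higher in lines beyond 2-fold, and 1 of the 10 matched Hedgehog genes held them too, so a single match is not read as a share. Degenerate forms of the element were not searched.

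Amino acid synthesis and the genes driven by Atf4, a transcription factor of nutrient stress, were higher in lines for 11 of 12 members, 7 beyond 2-fold (median -1.76). The shares over all genes tested were 25.2% and 2.96%. Psat1, an enzyme of serine synthesis, was at 29.7, 41.8 and 156 CPM in tumors and at 355, 312, 306, 309 and 678 CPM in lines (-2.75 ± 0.38; beyond 2-fold, adjusted p = 0.000605). KO tumor 6 was the highest tumor and KO line 5 the highest line. Phgdh, the enzyme before it, was higher in lines by a log2 fold change of -2.63 ± 0.31. Asns, which makes asparagine, had -2.65 ± 0.25 and Chac1, which degrades glutathione, -2.88 ± 0.42. Atf4 itself was at 185 ± 23.6 CPM in tumors and 363 ± 89.7 CPM in lines. Cth, a cysteine-making enzyme outside the list, was at 3.84 ± 1.42 and 40.6 ± 15.4 CPM (-3.40 ± 0.30).

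**Figure D4:**
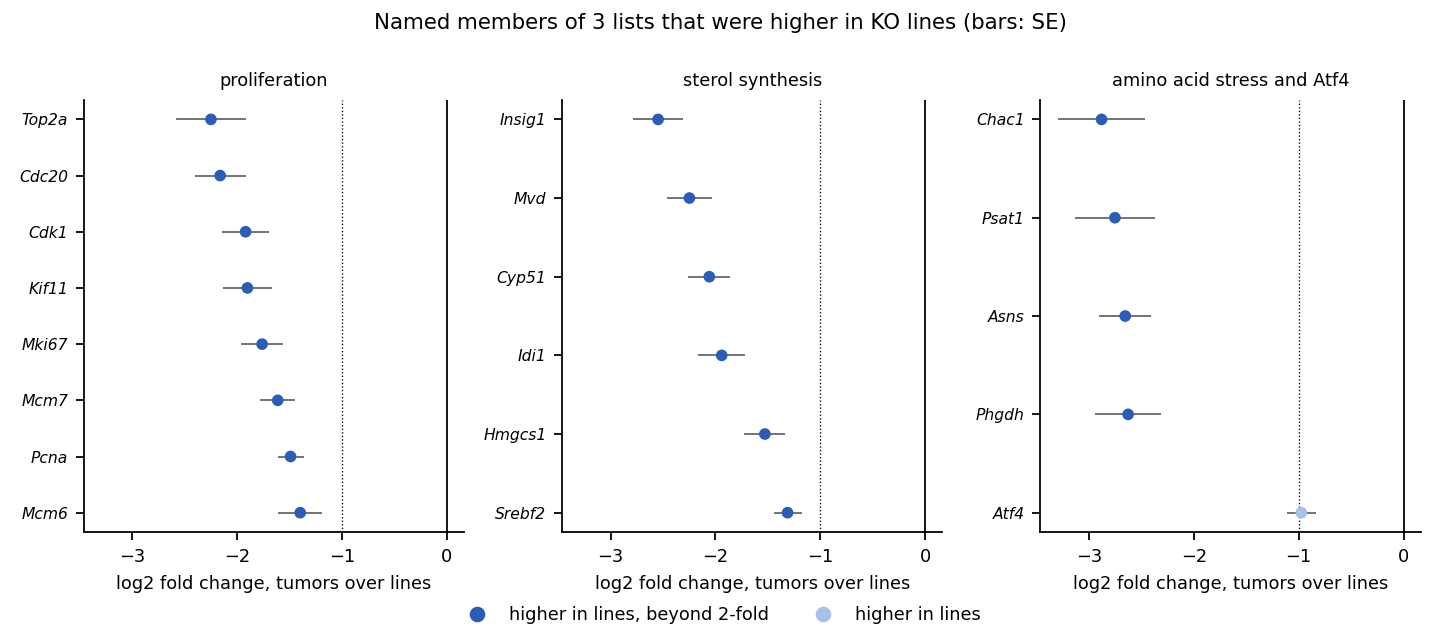
Log2 fold change (tumors over lines, negative where lines are higher) with its SE for the members named in the text of 3 lists: proliferation (8), sterol synthesis (6) and amino acid stress and Atf4 (5). All points lie left of 0, from -0.97 for Atf4 to -2.88 for Chac1.

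Growth and metabolism genes were mostly higher in lines, as were 25.2% of all genes tested, and few of them were called beyond 2-fold. All 13 genes of ribosome biogenesis and Myc were higher in lines, 3 beyond 2-fold. Myc itself was at 62.4, 103 and 186 CPM in tumors and at 298, 239, 398, 386 and 464 CPM in lines (-1.75 ± 0.25; adjusted p = 6.59e-05), without overlap. Npm1, a nucleolar chaperone, was higher in lines (-1.15 ± 0.18). Of 20 cytosolic ribosomal proteins, 14 were higher in lines, such as Rplp0 (-0.98 ± 0.10). With library totals in place of trimmed-mean scaling, 7 of them were higher in lines and 2 in tumors. Of 13 glycolysis genes, 11 were higher in lines, 2 of them beyond 2-fold, and 1 was higher in tumors. Pkm, pyruvate kinase, was at 525, 996 and 1468 CPM in tumors and at 2818, 2232, 2187, 2555 and 2819 CPM in lines (-1.42 ± 0.21; adjusted p = 8.81e-05, and 0.0407 beyond 2-fold). Ldha, lactate dehydrogenase (-1.14 ± 0.20), and Gapdh (-1.21 ± 0.19), which overlaps Iffo1 on the other strand, did likewise.

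Hypoxia genes, by contrast, had 3 members higher in tumors, 1 higher in lines and 7 not called. Vegfa, the vascular growth factor, was not called (259.8 ± 113 CPM in tumors, 181 ± 61.6 CPM in lines), Ddit4 was higher in tumors (0.82 ± 0.25) and Pdk1 was higher in lines (-0.76 ± 0.15). Of 16 genes of oxidative phosphorylation, 12 were higher in lines and 1 in tumors, none beyond 2-fold. Of 10 Yap and Tead targets, 4 were higher in lines and 2 in tumors, or 2 and 2 with library totals. Of 10 Nrf2 targets, 6 were higher in lines and 1 in tumors. Over all genes tested, 25.2% were higher in lines and 34.8% in tumors.

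Genes that report MAPK signalling were mostly higher in lines. Of 13 such MAPK output genes, 9 were higher in lines and none in tumors, or 5 and none with library totals. Ccnd1, a cyclin of the first phase of the cycle, was at 405 ± 162 CPM in tumors and 1167 ± 242 CPM in lines (-1.53 ± 0.25). The phosphatase gene Dusp6 had -0.83 ± 0.20 and the receptor gene Epha2 -1.34 ± 0.23. Of 10 actin and Srf genes, 8 were higher in lines, or 5 with library totals (then 1 in tumors), including Flna, filamin A (-1.17 ± 0.15). The shares over all genes tested were 25.2% in lines and 34.8% in tumors. With library totals, 2883 of the 17322 genes were higher in lines and 7202 in tumors.

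Genes around p53 differed in both directions. Trp53 (chr11:69580359-69591873) was at 14.7, 26.5 and 78.9 CPM in tumors and at 5.79, 7.30, 5.26, 4.17 and 17.0 CPM in lines. KO line 5 reached above the lowest tumor, and Trp53 was higher in tumors by 1.98 ± 0.44 (adjusted p = 0.00169). Cdkn1a, the cell cycle inhibitor p21 and a p53 target, was at 69.6, 78.2 and 87.9 CPM in tumors and at 12.2, 10.0, 13.2, 35.5 and 23.6 CPM in lines (2.06 ± 0.27; beyond 2-fold, adjusted p = 0.00109). The tumors lay close together and all above the lines. Cdkn2a, whose products p16 and Arf restrain the cycle, was at 37.0, 150.0 and 230.3 CPM in tumors and at 385, 430.3, 403, 366 and 368 CPM in lines (-1.44 ± 0.33; adjusted p = 0.00224). Here every line lay above every tumor.

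Of 14 p53 targets, 8 were higher in tumors and 2 in lines, against 34.8% and 25.2% of all genes tested. Eda2r, a receptor of the tumor necrosis factor family, was higher in tumors by 6.55 ± 0.84 (7.71 without KO line 3) from a level of 0.0681 ± 0.104 CPM in lines, and Mdm2, which degrades p53, by 0.52 ± 0.12. Tnfrsf10b, a death receptor, was at 25.9, 41.8 and 53.5 CPM in tumors and at 125, 126, 117, 151 and 145 CPM in lines (-1.70 ± 0.15; beyond 2-fold, adjusted p = 0.000368). The tumors also held the stromal and immune transcripts described above, and the part of those cells in these values was not tested.

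Interferon and antigen presentation genes were higher in tumors. Of 16 interferon genes, 13 were higher in tumors, 12 beyond 2-fold, and none was higher in lines (median 3.96). The shares over all genes tested were 34.8%, 20.9% and 25.2%. Oasl2, an interferon-induced gene, was at 16.6, 18.8 and 42.1 CPM in tumors and at 0.443, 0.819, 1.64, 0.815 and 0.865 CPM in lines (4.59 ± 0.37; beyond 2-fold, adjusted p = 2.78e-06). Every tumor lay above every line, while Irf1 was not called (0.42 ± 0.22).

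All 10 genes of MHC class I presentation were higher in tumors, 6 beyond 2-fold, against 34.8% and 20.9% of all genes tested. H2-D1, a class I heavy chain whose reads can be shared with its relatives, was at 241, 291 and 819 CPM in tumors and at 100.4, 97.9, 128, 162 and 111 CPM in lines (1.69 ± 0.33; adjusted p = 0.000633). B2m, its light chain, was at 169, 244 and 703 CPM in tumors and at 109.7, 79.8, 96.0, 136 and 124 CPM in lines (1.45 ± 0.34; adjusted p = 0.00251). Neither gene overlapped between the groups. The gap was wider for the immunoproteasome subunit Psmb8 (6.64 ± 1.01) and the peptide transporter Tap1 (5.37 ± 0.87), which overlaps Psmb9 on the other strand. Without KO tumor 8 these were 5.86 and 4.53. Immune cells express these genes strongly, and the macrophage sum was 976 to 4150 CPM in tumors, and their part in the class I values was not tested.

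Hedgehog genes are ordered by role. The ligands were not higher in tumors. Shh was at 2.45, 20.9 and 64.2 CPM in tumors and at 1.37, 3.03, 5.81, 37.4 and 10.8 CPM in lines (0.91 ± 0.79; adjusted p = 0.34). Without KO line 4, Shh was higher in tumors (2.04; adjusted p = 0.0378). Ihh was not called (0.29 ± 0.67), and Dhh was higher in lines (-1.43 ± 0.45; adjusted p = 0.0147). Among receptors and co-receptors, Ptch1, which is both receptor and target, was at 33.5, 54.3 and 139 CPM in tumors and at 51.3, 53.4, 51.8, 71.2 and 68.9 CPM in lines, and was not called (0.10 ± 0.28). Boc (8.26 ± 1.07, or 11.5 without KO line 2), Gas1 (1.33 ± 0.45), Cdon (0.71 ± 0.24; adjusted p = 0.021, or 0.059 without KO line 1) and the decoy receptor Hhip (3.76 ± 0.93, or 4.82 without KO line 2) were higher in tumors.

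Downstream, the transducer Smo (-0.77 ± 0.18) and the inhibitor Sufu (-0.62 ± 0.10) were higher in lines. Gli2, the main activating transcription factor (chr1:118834132-119053619), was at 3.09, 7.92 and 9.92 CPM in tumors and had 0 counts in the 5 lines, at least 53-fold higher. Gli1, a target and activator, was at 2.73, 8.47 and 26.7 CPM in tumors and at 0.0369, 0.214, 0, 0 and 0.0361 CPM in lines (7.28 ± 0.90, or 8.71 without KO line 2). It overlaps Arhgap9 on the other strand. Gli3 was not called (0.37 ± 0.55). In all, 7 of 14 Hedgehog genes were higher in tumors, 3 in lines and 4 were not called. Of all genes tested, 34.8% were higher in tumors and 25.2% in lines. The fibroblast markers moved in the same direction as Gli1 and Gli2 (9 of 10 higher in tumors, sums of 262 to 4612 against 36.6 to 77.6 CPM), and their part was not tested.

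Of 45 ligand and receptor pairs, 17 had both partners higher in tumors, 10 of them with both beyond 2-fold. Csf1 and its receptor were among these 17 pairs. Some genes, such as Csf1r, stand in more than 1 pair. With each gene counted once, 38 were higher in tumors beyond 2-fold, 17 by the first call only, 7 were higher in lines and 24 were not called. Of all genes tested, 34.8% were higher in tumors (20.9% beyond 2-fold) and 25.2% in lines. Csf1, the macrophage growth factor, was higher in tumors by 1.07 ± 0.39 (adjusted p = 0.0303; 0.0507 to 0.0712 without KO line 1, KO line 4, KO line 5 or KO tumor 8). Its receptor Csf1r was at 138 ± 85.1 CPM in tumors and 0.0658 ± 0.0693 CPM in lines. In 4 pairs neither partner was higher in tumors: Shh and Ptch1, Tgfb1 and Tgfbr2, Efnb2 and Ephb4, and Spp1 and Cd44. In 8 pairs the receptor was higher in tumors beyond 2-fold and the ligand was not higher. In 7 pairs the ligand was higher in tumors beyond 2-fold and the receptor was not higher. Hgf, a growth factor of mesenchymal cells, was at 3.33 ± 2.01 CPM in tumors and had 0 counts in lines, at least 24.5-fold higher, and its receptor Met was higher in lines (-0.61 ± 0.15). Gas6 was higher in tumors by 5.67 ± 0.80 (5.05 without KO tumor 4) and its receptor Axl was higher in lines (-1.0 ± 0.29). In 5 pairs the partners were called in opposite directions (Hgf and Met, Gas6 and Axl, Dll4 and Notch1, Jag1 and Notch3, Sema3c and Nrp1), none of them with both calls beyond 2-fold. These pairs were singled out after their values were seen.

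Against 20.9% of all genes tested, 8 of 10 immune checkpoint genes were higher in tumors beyond 2-fold. Their receptors on T cells were at low levels: Pdcd1 was at 1.23 ± 1.18 CPM and Ctla4 at 1.57 ± 2.30 CPM in tumors, each with 0 counts in lines. Lag3 (2.68 ± 0.39) and Havcr2 (4.24 ± 0.67) were higher in tumors. Among ligands and myeloid members, Vsir (6.04 ± 0.61), Cd80 (5.73 ± 0.81, or 6.90 without KO line 4) and Pdcd1lg2 (4.73 ± 1.12, or 3.86 without KO tumor 6) were higher, and Cd86, with 1 count in all lines, was at 9.61 ± 7.45 CPM in tumors. Cd274, the ligand PD-L1, was at 6.06, 8.26 and 19.5 CPM in tumors and at 5.94, 6.62, 14.3, 3.44 and 4.36 CPM in lines. It was not called (0.42 ± 0.37), but was higher in tumors without KO line 3 (0.86; adjusted p = 0.0416). Tigit, an inhibitory receptor of T and NK cells (chr16:43648867-43664146), went the other way: it was at 2.47, 5.31 and 8.73 CPM in tumors and at 18.2, 15.4, 24.6, 17.2 and 30.2 CPM in lines (-1.93 ± 0.33; beyond 2-fold, adjusted p = 0.00864, a call lost with DESeq2). Every line lay above every tumor, although Cd3e had 0 counts in all lines.

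Published targets of miR-21, which all 13 libraries are labelled to lack, were split: 4 of 13 were higher in tumors, 4 in lines and 5 were not called, with a median of -0.18. Over all genes tested, 34.8% were higher in tumors and 25.2% in lines. With library totals the numbers were 5 in tumors and 1 in lines. Reck, a membrane inhibitor of metalloproteinases, was higher in tumors (4.75 ± 0.75), as were Timp3 (above), Pdcd4, a translation inhibitor (0.90 ± 0.27), and Btg2, an inhibitor of growth (0.68 ± 0.24). The Notch ligand gene Jag1 (-1.05 ± 0.27), Spry2, an inhibitor of receptor signalling (-0.69 ± 0.21), and Tpm1, a tropomyosin (-0.49 ± 0.18), were higher in lines. The call of Tpm1 was lost without any of several single libraries, for instance KO line 3 (adjusted p = 0.0846), and that of Btg2 without KO line 1, 3 or 5 (adjusted p of 0.0541 to 0.069).

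The 12 genes with the largest fitted log2 fold change in favour of tumors all had 0 counts in the lines. A fitted value against 0 counts is not bounded by the data, so this order puts such genes first and is not an order of size. Besides those named, they were Ctss, a lysosomal protease of antigen-presenting cells (at least 2557-fold higher), Serpina3n, a protease inhibitor (1995-fold), Chil3, a chitinase-like protein of macrophages (1691-fold), and the immunoglobulin genes Igha and Ighm. In favour of lines the gaps were smaller. Tmigd1, an epithelial adhesion protein (chr11:76902159-76916587), was at 0.0341, 0.457 and 5.65 CPM in tumors and at 45.7, 81.9, 62.1, 45.0 and 36.0 CPM in lines (-5.42 ± 0.88; beyond 2-fold, adjusted p = 0.000558; -6.40 without KO tumor 5). Aqp8, a water channel (chr7:123462291-123468004), was at 0.0354, 0.529 and 2.47 CPM in tumors and at 19.4, 5.73, 12.6, 74.3 and 37.6 CPM in lines (-5.40 ± 0.84, or -4.73 without KO line 4 and -6.03 without KO tumor 1). The lines lay above the tumors for both. The others named here were Scd1, Cth and Muc5ac (above), Muc5b, a mucin (-4.18 ± 0.62), S100a7a (-3.78 ± 0.51), Klhl13 (-3.59 ± 0.53), Tmem158 (-3.37 ± 0.36), Lrp2, an endocytic receptor (-3.26 ± 0.85), and Csn3, a casein (-4.16 ± 1.26). Csn3 rested on KO line 3, without which it was -2.78 (adjusted p = 0.0683), and was -5.35 without KO tumor 6. Lrp2 was -2.50 without KO line 1, and then no longer called beyond 2-fold (adjusted p = 0.0948).

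Xist was the most variable gene in either group among those at 10 CPM or more, and the Y-linked Ddx3y, Eif2s3y and Kdm5d were among the 8 most variable of each. Besides these, immunoglobulin genes, Cfd and Akp3 varied most among tumors: Akp3, an intestinal phosphatase, was at 240.8 CPM in KO tumor 5 and at no more than 0.159 CPM in the others. Among lines, Nkx6-3, a gastric transcription factor, was at 228.6 CPM in KO line 4 and at 0.0361 to 0.507 CPM in the others, the same line that was highest for Muc5ac and Tff1. The biological coefficient of variation was 0.394 among tumors and 0.289 among lines.

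The difference between tumor and line had the same direction in WT libraries for most genes. Across 18662 genes, the tumor-line log2 fold changes in KO and in WT, which share no library, had a Pearson's r of 0.912 (a description; genes are not independent replicates), and 85.8% had the same sign. No gene passed the test of the difference between them (0 of 18662, 0%; edgeR's quasi-likelihood test), 1540 had an unadjusted p under 0.05, and the smallest adjusted p was 0.299. DESeq2 called 67 genes and limma-voom called 0. The difference between the KO and WT log2 fold changes had an SD of 1.17 across genes. Fitted values of genes with 0 counts in lines are not bounded and enter both this SD and the r. With 4 WT tumors, a lack of calls does not show that the genotypes were equal. The 5 smallest p-values in edgeR were those of Magix, Ret, Spats2l, Acat1 and Acta1. For Ret, a receptor kinase of the nervous system, the log2 fold change was 2.55 in KO and 5.21 in WT, and for Acta1, the actin of skeletal muscle, 0.40 and 9.45.

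Among lists, the proliferation genes had a median log2 fold change of -1.97 in KO and -1.77 in WT, and all 27 had the same sign in both. Sterol synthesis gave -1.80 and -1.47, with 20 of 20 of the same sign. The medians lay farthest apart for skeletal muscle (1.78 and 9.45), and were 12.9 and 9.43 for fibroblasts, 6.83 and 3.16 for complement and 12.8 and 12.3 for macrophages. These are medians of fitted values, which are not bounded for genes with 0 counts in lines. With such genes at their bound, the KO median was 8.96 for fibroblasts, 8.22 for macrophages and still 6.83 for complement. WT medians at the bound were not computed, so the size of these gaps is not read as a result. For 4 lists the fitted medians differed in sign: Hedgehog (0.80 and -0.0623), mesenchymal (-0.59 and 0.17), hepatocyte (2.96 and -0.15) and published miR-21 target genes (-0.18 and 0.21). The differences between medians were not tested. Unadjusted interaction p-values under 0.05 were found for 8 of 20 matrix genes and 5 of 10 complement genes, with smallest adjusted p-values of 0.434 and 0.534.

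**Figure D5:**
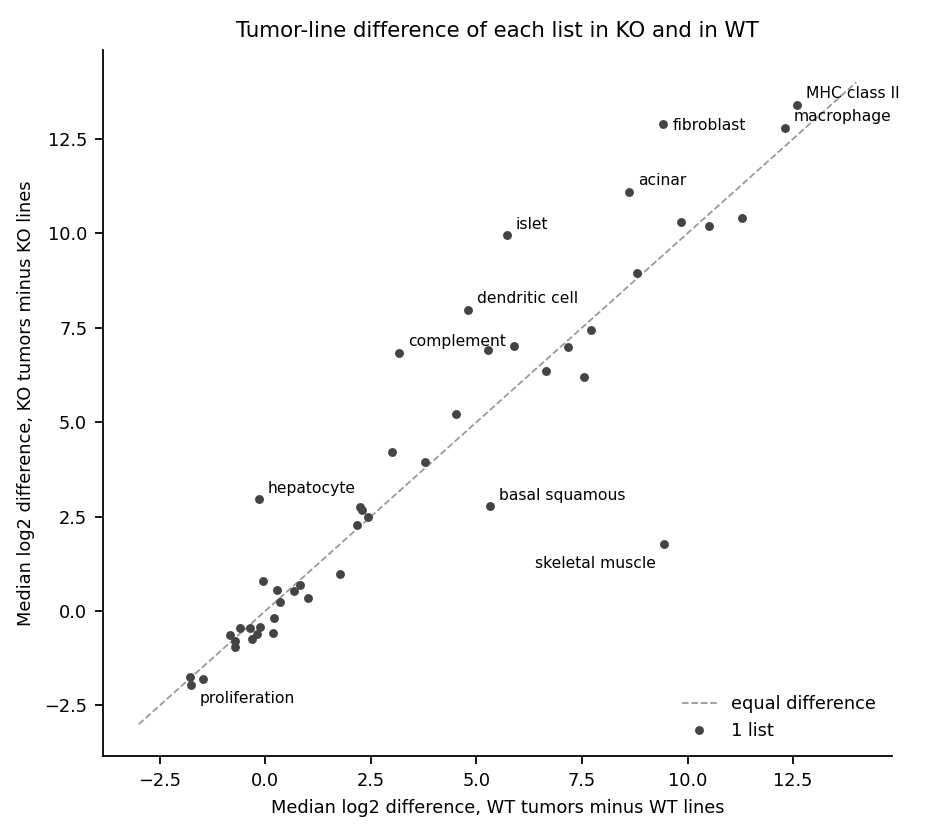
Median fitted log2 difference between tumors and lines for each of 47 lists in WT (x axis) and in KO (y axis), 1 point per list, with the dashed line where both are equal. Most lists lie near the line, such as proliferation at -1.77 and -1.97, while fibroblast, islet, complement, dendritic cell and hepatocyte lists lie above it and skeletal muscle and basal squamous lists below it.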

How the data were processed

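The authors deposited raw counts of reads per gene, in 1 table for lines and 1 for tumors. Per the submitters' processing notes, bcl2fastq 1.9.0, Trim Galore, STAR and the build mm10 were used. The files describe the counts as coming from STAR, per the file headers; the annotation and strand setting of the counting are not given in the sources used here. The library kit marks strand, per the labels' protocols. Groups came from the labelled genotype and source. The tables were joined by Ensembl ID and named from GENCODE, and the 105 rows without a symbol held 0.00944% of the counts.

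The 13 KO libraries were filtered with filterByExpr, scaled by trimmed means of M-values and fitted with edgeR 4.0.16 in R 4.3.3 (glmQLFit, robust). A second test (glmTreat) took differences within 2-fold as null. The SE is the size of the log2 fold change divided by the square root of the F statistic. WT libraries entered the interaction fit alone. DESeq2 1.42.0 and limma 3.58.1 (voom) were alternatives. No block for the animal was used in the main fit, since only 2 animals gave both materials. The fit was tested on simulated counts in which few genes changed, in either direction. In these data 60% of the genes were called, so that test cannot check the scaling here. CPM values use the scaled library sizes. A floor of 3 counts in 1 library covers counting error only. The p-values measure the spread between these samples.

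The comparison, its members and the gene lists were chosen with earlier results of these data known. Named genes were the 12 largest changes each way among calls beyond 2-fold at 10 CPM or more, up to 4 members of each list by mean CPM, the Hedgehog and checkpoint lists, Trp53, Cdkn2a, Mir21a and Vmp1, the 5 smallest interaction p-values and the 8 most variable genes per group. Those that repeat a list's description are given as counts, and some genes are not reported here. Chosen after their values were seen were Cdkn1a, Mdm2, Eda2r, Col4a1, Col4a2, Ly6g, Epcam, Cldn4, Cldn7, Esrp1, Grhl2, Cdh1, Vsig2, Muc6, Tff2, Agr2, Gkn1, Snai1, Snai2, Twist2, Prrx1, Cdk1, Kif11, Cdc20, Pcna, Mvd, Idi1, Insig1, Asns, Chac1, Tap1, Psmb8, Hgf, Met, Gas6, Axl, Csf1, Csf1r, Jag1, Reck, Pdcd4, Spry2, Pparg and the ligand and receptor pairs named.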

Additional observations from a re-analysis of the deposited data

Results flagged for a closer look

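In 45 of 182 group values screened, 1 library lay far from the nearest other library of its group relative to the group's range. The cutoff flags about 1 in 20 groups by chance only where values are normally distributed. Here CPM values were screened without transformation, and the values share libraries. All flags but the actin sum of KO tumor 4 and the ribosome biogenesis sum of KO line 4 were for the highest library. The number flagged is therefore not set against a number expected by chance.

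KO tumor 8 was the highest tumor for 12 of them. Its summed CPM was 3021 for MHC class I, 4349 for MHC class II, 229 for T and NK cells, 146 for dendritic cells, 439.8 for the interferon response and 458 for islet genes. Trp53 was at 78.9 CPM there, Col1a1 at 4195, H2-Aa at 867, Cd3e at 26.8, B2m at 703.5 and Cd274 at 19.5 CPM.

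KO tumor 4 was the highest tumor for fibroblast (4612 CPM), lymphatic vessel (1187 CPM), endothelial (973 CPM), acinar (3866 CPM) and Hedgehog (507 CPM) sums and the lowest for actin and Srf genes (5773 CPM). It was also the highest for Dcn (3382 CPM), Shh (64.2 CPM), Ptch1 (139 CPM) and Gli1 (26.7 CPM).

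KO tumor 6 was the highest for the driver locus (2038 CPM), mesenchymal (3480 CPM) and Atf4 (936 CPM) sums, for Fn1 (5529 CPM) and Psat1 (156 CPM). KO tumor 5 was the highest for myofibroblast and pericyte (2475 CPM) and hepatocyte (109.6 CPM) sums, for Acta2 (318 CPM) and for Tmigd1 (5.65 CPM). KO tumor 7 was the highest for the mesothelium sum (2228 CPM), and KO tumor 1 for Aqp8 (2.47 CPM).

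Among lines, KO line 4 was the highest for the classical gastric (11210.0 CPM) and p53 target (796 CPM) sums, for Muc5ac (5148 CPM), Tff1 (3080.0 CPM) and Shh (37.4 CPM), and the lowest for ribosome biogenesis (3164 CPM). KO line 3 was the highest for the matrix sum (4133 CPM), Acta2 (35.8 CPM) and Fn1 (2710.0 CPM). KO line 5 was the highest for Trp53 (17.0 CPM) and Psat1 (678 CPM), and KO line 2 for Gli1 (0.214 CPM).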

How the results depend on the processing

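The counts of genes kept their direction under all alternatives run. With library totals alone, 7202 genes were higher in tumors and 2883 in lines, and beyond 2-fold 338 were higher in lines. That last count was 281 with DESeq2 and 312 at an adjusted p under 0.01. Leaving out each library in turn gave 5655 to 6199 genes higher in tumors and 3978 to 4558 higher in lines, and beyond 2-fold 3286 to 3758 and 423 to 606. With limma-voom and the animal as a replicate block (estimated correlation 0.13), 6055 genes were higher in tumors and 4595 in lines, against 6012 and 4546 without the block. The interaction called 67 genes with DESeq2, 0 to 1 when single libraries were left out (1 without KO line 2), and 0 with limma-voom with and without the block. All 27 proliferation and all 20 sterol genes were higher in lines in every setting. With limma-voom, 3 B and plasma cell genes, 5 acinar genes and 7 islet genes were higher in tumors beyond 2-fold, against 9, 15 and 12 with edgeR, and the cause was not tested.

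Single genes that turned direction were not called with edgeR. Cd14 was 0.036 with upper quartile factors and 0.098 with library totals, and leaving out single libraries gave -0.21 to 0.02 (0.0205 without KO line 5). Tff1 was 0.87 with limma-voom with and without the block, and -0.87 to 0.78 when single libraries were left out (0.78 without KO line 4). Ptch1 was -0.0127 with limma-voom, -0.0117 with the block, -0.14 without KO tumors 4 and 8, and -0.16 to 0.20 when single libraries were left out (-0.16 without KO tumor 4). Fbln1 was -0.10 without KO tumors 4 and 8. Without KO tumors 2 and 6, Gli3 was -0.0561, and leaving out single libraries gave -0.12 to 0.81 for Gli3 (-0.12 without KO tumor 6) and -0.0128 to 0.93 for Ihh (-0.0128 without KO tumor 1). The cause was not tested. The settings without KO tumors 2 and 6 and without KO tumor 3 with KO line 5 were chosen after the data were seen.

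The depth limits what 0 counts in a line can show to levels under about 0.136 CPM. Marker levels cannot separate fewer cells from less RNA per cell, and tumor values are those of mixed tissue. Material and deposited table cannot be told apart.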
